A study of Rattus norvegicus with 12 samples.

Results

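The transcripts described here belong to the genes by which the beta cell senses glucose and couples electrically to its neighbours, namely Slc2a2, G6pc2, Kcnj11, Abcc8 and Gjd2. They were chosen by name for glucose uptake, glucose-6-phosphate turnover, the ATP-sensitive potassium (KATP) channel and the gap junction, and the rule sets no threshold on a measured value. Of the 5 genes, 4 had a row under their name in the table of 13733 detected genes, and G6pc2 was not analysed here.

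Total RNA was sequenced from dispersed pancreatic islet cells of male Wistar rats aged 3 months, cultured in medium with 11 mM glucose. All cells had received a single-stranded oligonucleotide (30 pmol) by lipofection, 72 h before RNA extraction. Libraries named anti-control (n = 6) received a scrambled sequence, and libraries named anti-mt-tRF-LeuTAA (n = 6) an antisense sequence against mt-tRF-LeuTAA, a fragment of the mitochondrial leucine tRNA. According to the study, a replicate is the islets of a single rat. Replicate numbers 1 to 6 occur in both groups, and the labels do not say whether libraries with the same number came from the same rat.

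In rodents, glucose enters beta cells through the low-affinity transporter GLUT2, the product of Slc2a2, and is then phosphorylated, a step that the glucose-6-phosphatase of islets, G6pc2, opposes. The ATP made from glucose closes the KATP channel, which is built from the pore subunit Kir6.2 (Kcnj11) and the sulfonylurea receptor SUR1 (Abcc8), and the membrane then depolarizes and calcium enters. Gap junctions of Cx36, the connexin encoded by Gjd2, join neighbouring beta cells so that their calcium oscillations run in step.

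The promoter windows of Slc2a2 and Gjd2 are printed because Slc2a2 was the member with the widest spread between libraries and Gjd2 the one with a called difference. Both are RefSeq sequences of assembly GRCr8 and hold the 250 bases before the annotated transcript start, 5′ to 3′, with matches to the searched motifs in capitals.
Slc2a2: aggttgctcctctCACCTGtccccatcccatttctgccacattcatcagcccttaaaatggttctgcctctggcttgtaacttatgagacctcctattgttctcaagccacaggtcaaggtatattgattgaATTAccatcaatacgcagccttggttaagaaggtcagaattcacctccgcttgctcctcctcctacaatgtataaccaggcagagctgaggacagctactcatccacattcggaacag
Gjd2: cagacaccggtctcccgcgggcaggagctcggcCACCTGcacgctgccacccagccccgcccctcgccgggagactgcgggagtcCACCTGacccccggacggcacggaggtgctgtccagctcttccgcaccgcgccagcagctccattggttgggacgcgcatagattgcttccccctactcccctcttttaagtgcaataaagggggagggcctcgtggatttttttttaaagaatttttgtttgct
The Slc2a2 window lies at chr2:113540120-113540369 on the forward strand and the Gjd2 window at chr3:121229368-121229617 on the reverse strand. Searched on both strands were CANNTG, the E-box bound by factors such as Neurod1, TAAT, the core of homeodomain factors such as Pdx1 and Nkx6-1, TGTTTAC and TATTTAC (forkhead), GTTAAT (part of the HNF1 site) and TGCTGAC (part of the MAF site). The Slc2a2 window held 1 E-box beginning 237 bases before the start and 1 TAAT core, read as ATTA on the printed strand, 118 bases before it. The Gjd2 window held 2 E-boxes, 217 and 165 bases before the start, and no TAAT. No letters of the forkhead, HNF1 or MAF motifs were found in either window. An E-box was present in 65.2% of 27457 rat promoter windows and a TAAT core in 56.3%. Among the 10405 windows of genes in the table the shares were 57.0% and 39.5%, and the matches describe the sequence only. GC content was 47.2% for Slc2a2 and 62.0% for Gjd2, against a median of 52.0% over all windows. Promoter sequences of Kcnj11 and Abcc8 were not analysed here.

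The libraries held 16.4 to 23.4 M reads in the listed genes, and levels are given as deposited, in log2 CPM (reads scaled to library size). Differences are anti-mt-tRF-LeuTAA minus anti-control, from a limma fit over all genes with the replicate number as a block, called at a Benjamini-Hochberg adjusted p of at most 0.05. All 8 beta-cell markers were measured in every library, with summed levels of 82914 to 163589 CPM in anti-control and 89173 to 154173 CPM in anti-mt-tRF-LeuTAA libraries. This sum was lowest in anti-control replicates 1 and 2 (87998 and 82914 CPM) and anti-mt-tRF-LeuTAA replicate 2 (89173 CPM). It was at least 98627 CPM in the other 9 libraries. The 5 alpha-cell markers stood apart in 3 libraries, with summed levels of 2198 and 2098 CPM in anti-control replicates 1 and 2 and 3676 CPM in anti-mt-tRF-LeuTAA replicate 2, against 12811 to 43151 CPM in the other 9. The 4 delta-cell markers summed to 106, 116 and 153 CPM in the same 3 libraries and to at least 311 CPM elsewhere. Deviations of anti-control replicate 1 from its group mean correlated better across genes with anti-mt-tRF-LeuTAA replicate 2 (r = 0.73) than with its own number (r = 0.52), whereas the other 11 libraries matched their own number best. Results are therefore also given without replicates 1 and 2, and it cannot be told apart in this mixed RNA whether fewer cells of a type or less RNA per cell was present.

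With the block, 1 of the 4 measured members passed the test, Gjd2, which was lower after silencing, and of all 13733 genes 35.3% were called in either direction and 17.7% as lower. Without the block Gjd2 was again the 1 member called, against 15.5% of all genes in either direction, 10.9% as higher and 4.65% as lower. Slc2a2, Kcnj11 and Abcc8 did not pass. With the block, 1 of 4 is close to the share of all genes.

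**Figure D1:**
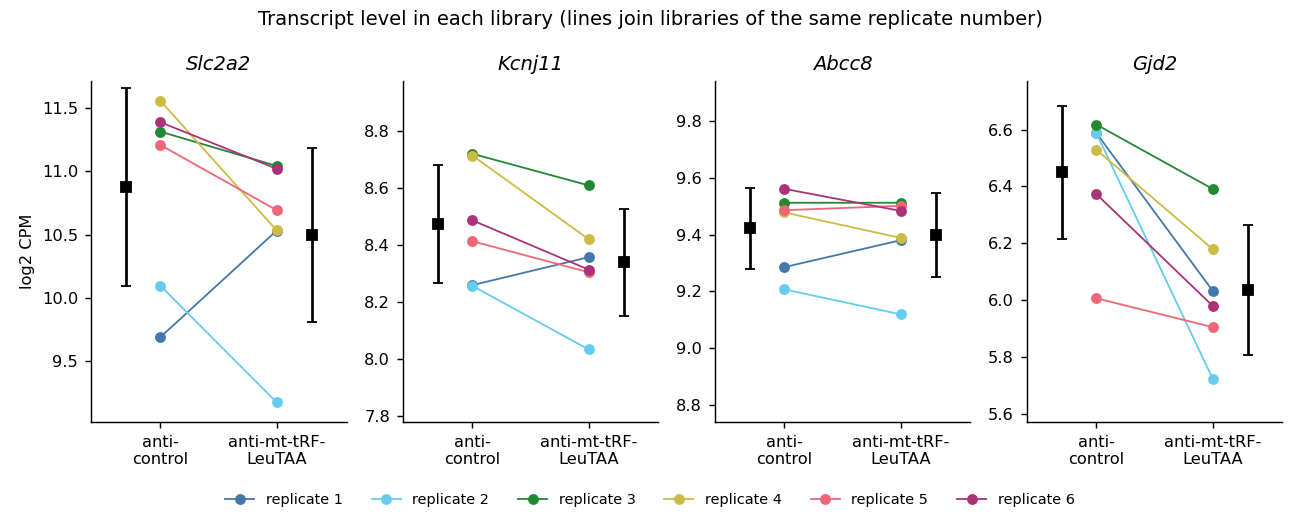
Levels (log2 CPM, y axis) of Slc2a2, Kcnj11, Abcc8 and Gjd2 in the 6 anti-control and 6 anti-mt-tRF-LeuTAA libraries. Points are libraries, lines join libraries of the same replicate number, squares with bars are group mean ± SD (n = 6), and each panel has its own axis. Gjd2 falls along all 6 lines, Slc2a2 and Kcnj11 along 5, and Abcc8 along 3.

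Gjd2 (ENSRNOG00000008337, chromosome 3, 105467480 to 105470475, reverse strand, Rnor_6.0) encodes Cx36, the main gap junction protein between rodent beta cells. Its level in anti-control replicates 1 to 6 was 6.59, 6.59, 6.62, 6.53, 6.01 and 6.37 log2 CPM. In anti-mt-tRF-LeuTAA replicates 1 to 6 it was 6.03, 5.72, 6.39, 6.18, 5.91 and 5.98 log2 CPM. The groups overlapped, since anti-control replicates 5 and 6 lay below the highest silenced library, replicate 3, yet each silenced library lay below the control of its own number.

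Gjd2 averaged 6.45 ± 0.23 log2 CPM in anti-control and 6.04 ± 0.23 log2 CPM in anti-mt-tRF-LeuTAA libraries (SD, n = 6), and was thus 1.33-fold lower after silencing. The log2 fold change was -0.41 (SE 0.09, 95% interval -0.62 to -0.21), with an adjusted p of 0.00650 in the limma fit with the block and 0.0422 without it. Within replicate numbers 1 to 6 the differences were -0.55, -0.86, -0.23, -0.35, -0.10 and -0.39 on the log2 scale. All 6 were negative, for which the exact two-sided sign-flip test gave p = 0.0312, the smallest value that 64 arrangements allow. The 2 widest differences belonged to replicates 1 and 2, and without both the log2 fold change was -0.27 (limma adjusted p = 0.0117).

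With the block, the Gjd2 call was kept in all 6 fits that left out 1 replicate number (limma adjusted p 0.00660 to 0.0192), whereas without the block it was kept in 2 of 12 fits that left out 1 library (adjusted p 0.00815 to 0.0899). The fold change ranged from -0.50 to -0.35 in these 12 fits, so the direction did not turn. Fits without the block leave differences between replicate numbers in the error (Gjd2 SE 0.13 over all libraries, against 0.09 with the block). Gjd2 was counted with 916 to 2070 reads per library.

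**Figure D2:**
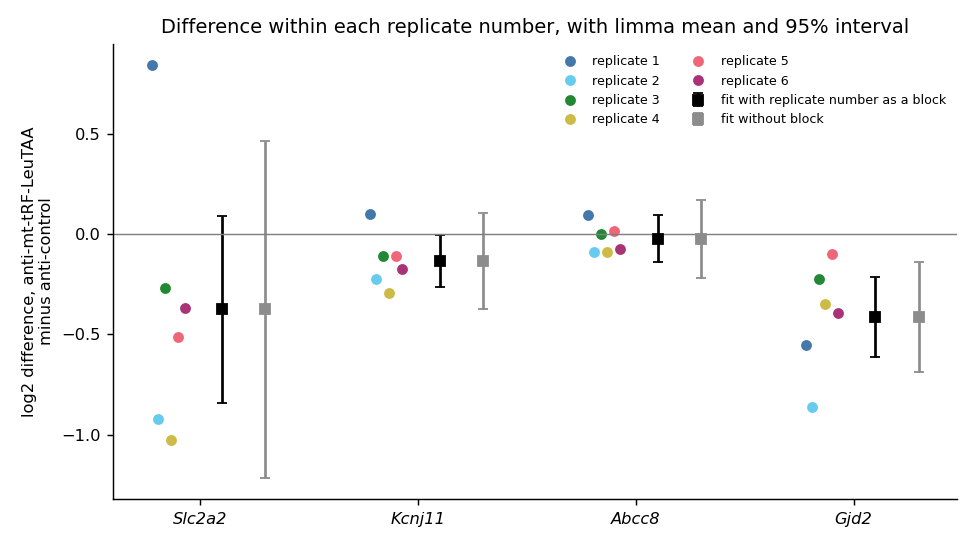
Difference in level (log2 scale, y axis) between the anti-mt-tRF-LeuTAA and the anti-control library of each replicate number for Slc2a2, Kcnj11, Abcc8 and Gjd2. Coloured points are replicate numbers and squares are limma means with 95% intervals, black with and grey without the replicate block. All 6 Gjd2 points lie below 0, and replicate 1 alone lies above 0 for Slc2a2 (0.84) and Kcnj11 (0.10).

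Of 22 connexins and pannexins considered, 6 were measured and 1, Gjd2, fell, with and without the block, where 17.7% and 4.65% of all genes were called lower. Their median log2 fold change was -0.09 against -0.04 over all genes. Gja1, which encodes the widely expressed connexin Cx43, was at 3.79 ± 1.38 and 3.60 ± 1.29 log2 CPM (log2 fold change -0.19, limma adjusted p = 0.490).

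The table listed 116 to 196 genes at 0 reads in anti-control but 4 to 18 in silenced libraries, and the members were read in every library.

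Slc2a2 (ENSRNOG00000011875, chromosome 2, 114413410 to 114445395, forward strand) encodes GLUT2 and varied more between libraries than the other members. Its level in anti-control replicates 1 to 6 was 9.69, 10.09, 11.31, 11.56, 11.21 and 11.39 log2 CPM. In anti-mt-tRF-LeuTAA replicates 1 to 6 it was 10.53, 9.17, 11.04, 10.53, 10.69 and 11.02 log2 CPM. The 3 lowest libraries were anti-mt-tRF-LeuTAA replicate 2 and anti-control replicates 1 and 2. The same libraries were low in alpha-cell and delta-cell markers and had the lowest beta-cell marker sums. The part of cell composition in these values was not tested.

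The mean of Slc2a2 was 10.87 ± 0.78 log2 CPM in anti-control and 10.50 ± 0.69 log2 CPM in anti-mt-tRF-LeuTAA libraries (SD, n = 6 each). The log2 fold change of -0.38 (SE 0.21, 95% interval -0.84 to 0.09) did not pass with the block (limma adjusted p = 0.188) or without it (0.592). The interval reaches from a 1.79-fold lower to a 1.06-fold higher level. The difference was negative in 5 of 6 replicate numbers (-0.92, -0.27, -1.03, -0.52 and -0.37) and positive in replicate 1 (0.84), with an exact two-sided sign-flip p of 0.219.

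Replicate 1 thus decided the Slc2a2 result. Without it the log2 fold change was -0.62 (limma adjusted p = 0.00243), and without replicates 1 and 2, a setting chosen after the data had been seen, it was -0.55 (adjusted p = 0.00868). In the fits without the block that left out 1 library, none of 12 passed, with adjusted p from 0.286 to 0.886.

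Slc2a1, which encodes the high-affinity transporter GLUT1, was highest in the 3 libraries in which Slc2a2 was lowest, namely anti-control replicates 1 and 2 (7.98 and 8.03 log2 CPM) and anti-mt-tRF-LeuTAA replicate 2 (8.19 log2 CPM). It was at 5.30 to 6.66 log2 CPM in the other 9 libraries. Its group means were 6.57 ± 1.19 and 6.45 ± 0.95 log2 CPM. The log2 fold change of -0.11 did not pass in the limma fit with the block (adjusted p = 0.679) or without it (0.926).

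The Slc2a2 to Slc2a1 log2 ratio, which does not depend on library scaling, was 1.70, 2.06, 4.80, 5.57, 5.63 and 6.09 in anti-control and 3.87, 0.98, 4.83, 4.14, 4.95 and 5.50 in anti-mt-tRF-LeuTAA replicates 1 to 6. The ratios are not corrected for transcript length and were compared only between groups. The mean of 4.31 ± 1.93 against 4.05 ± 1.61 differed by -0.26, lower in 4 of 6 replicate numbers (exact two-sided sign-flip p = 0.688, also 0.688 after adjustment over the 2 ratios computed).

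**Figure D3:**
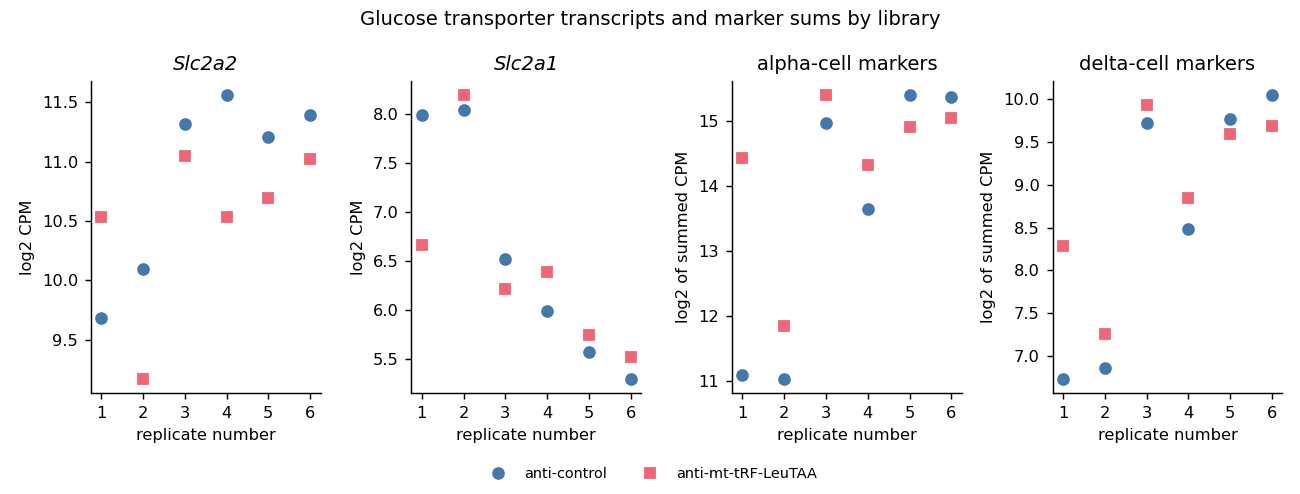
Levels of Slc2a2 and Slc2a1 (log2 CPM) and log2 summed CPM of 5 alpha-cell and 4 delta-cell markers (y axes) by replicate number (x axis), circles for anti-control and squares for anti-mt-tRF-LeuTAA libraries. Anti-control replicates 1 and 2 and anti-mt-tRF-LeuTAA replicate 2 have low Slc2a2, high Slc2a1 and low marker sums, and anti-mt-tRF-LeuTAA replicate 1 does not share this pattern.

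Among 11 listed glucose transporters of the SLC2A family, 10 were measured, 1 rose and 0 fell in the limma fit with the block, where 17.6% and 17.7% of all genes did, and 0 fell also at an unadjusted p of at most 0.05 and with limma-voom on reads. Without the block 0 rose or fell, against 10.9% and 4.65% of all genes (1 and 0 of the list at an unadjusted p of at most 0.05). The median log2 fold change of the list was -0.12. The member that rose was Slc2a9, a urate transporter, at 1.78 to 3.00 log2 CPM in anti-control and 2.68 to 3.49 log2 CPM in silenced libraries, higher in 5 of 6 replicate numbers (log2 fold change 0.62, SE 0.18, limma adjusted p = 0.0253, and 0.0569 without the block). It was called in 2 of the 6 fits that left out 1 replicate number.

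Kcnj11 (ENSRNOG00000021128, chromosome 1, 102103094 to 102106127, reverse strand) encodes Kir6.2, the pore of the KATP channel. Its level in anti-control replicates 1 to 6 was 8.26, 8.26, 8.72, 8.72, 8.41 and 8.49 log2 CPM. In anti-mt-tRF-LeuTAA replicates 1 to 6 it was 8.36, 8.03, 8.61, 8.42, 8.30 and 8.31 log2 CPM. The groups overlapped widely, with 5 of 6 silenced libraries above the lowest control.

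The mean of Kcnj11 was 8.48 ± 0.21 log2 CPM in anti-control and 8.34 ± 0.19 log2 CPM in anti-mt-tRF-LeuTAA libraries (SD, n = 6 each), a log2 fold change of -0.14 (SE 0.06, 95% interval -0.26 to -0.01). It did not pass after adjustment over all genes (limma adjusted p = 0.0952, and 0.475 without the block). The difference was negative in replicates 2 to 6 (-0.22, -0.11, -0.29, -0.11 and -0.17) and positive in replicate 1 (0.10), with an exact two-sided sign-flip p of 0.0625. Replicate 1 again set the call, since the log2 fold change without it was -0.18 (limma adjusted p = 0.0167) and without replicates 1 and 2 was -0.17 (0.0372). Quantile normalization removed the difference (0.00081, adjusted p = 0.992).

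Abcc8 (ENSRNOG00000021130, chromosome 1, 102110708 to 102191287, reverse strand) encodes SUR1, the subunit that binds sulfonylureas. It lies 4.58 kb upstream of Kcnj11 on the same strand. Its level in anti-control replicates 1 to 6 was 9.29, 9.21, 9.51, 9.48, 9.49 and 9.56 log2 CPM. In anti-mt-tRF-LeuTAA replicates 1 to 6 it was 9.38, 9.12, 9.51, 9.39, 9.50 and 9.48 log2 CPM. Libraries of the 2 groups were interleaved, and the lowest in either group was replicate 2.

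The mean of Abcc8 was 9.42 ± 0.14 against 9.40 ± 0.15 log2 CPM (SD, n = 6 each), and the differences were positive in 3 and negative in 3 replicate numbers. The log2 fold change was -0.02 (SE 0.05, limma adjusted p = 0.748, and 0.898 without the block), with an exact sign-flip p of 0.625. Its 95% interval of -0.14 to 0.09 allows a level from 1.10-fold lower to 1.07-fold higher. The direction turned with the scaling, to 0.14 with quantile normalization (limma adjusted p = 0.0342) and to 0.05 with scaling by library totals alone (0.503).

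The Abcc8 to Kcnj11 log2 ratio does not depend on scaling by library and bears on the balance of the channel's subunit transcripts. It was 1.03, 0.95, 0.79, 0.76, 1.07 and 1.07 in anti-control and 1.02, 1.09, 0.90, 0.97, 1.20 and 1.17 in anti-mt-tRF-LeuTAA replicates 1 to 6. The mean moved from 0.95 ± 0.14 to 1.06 ± 0.12, a difference of 0.11 that was positive in 5 of 6 replicate numbers. The exact two-sided sign-flip test gave p = 0.0625 (0.125 after adjustment over the 2 ratios), above the threshold.

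The KATP subunits of vascular and muscle cells, Kcnj8 (Kir6.1) and Abcc9 (SUR2), were also measured. Kcnj8 was at -1.10 to 4.52 log2 CPM in anti-control and -0.13 to 4.87 log2 CPM in silenced libraries, and Abcc9 at 3.46 to 7.27 and 3.24 to 7.28 log2 CPM. Both were highest in the 4 libraries numbered 1 and 2, where 5 endothelial markers summed to 347 to 473 CPM against 24.9 to 215 CPM in the other 8. Of the 4 KATP genes, 0 passed in the limma fits with and without the block, where 35.3% and 15.5% of all genes did. With limma-voom 0 passed as well, and 1, Kcnj11, had an unadjusted p of at most 0.05 in the limma fit with the block. Their median log2 fold change was 0.05.

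**Figure D4:**
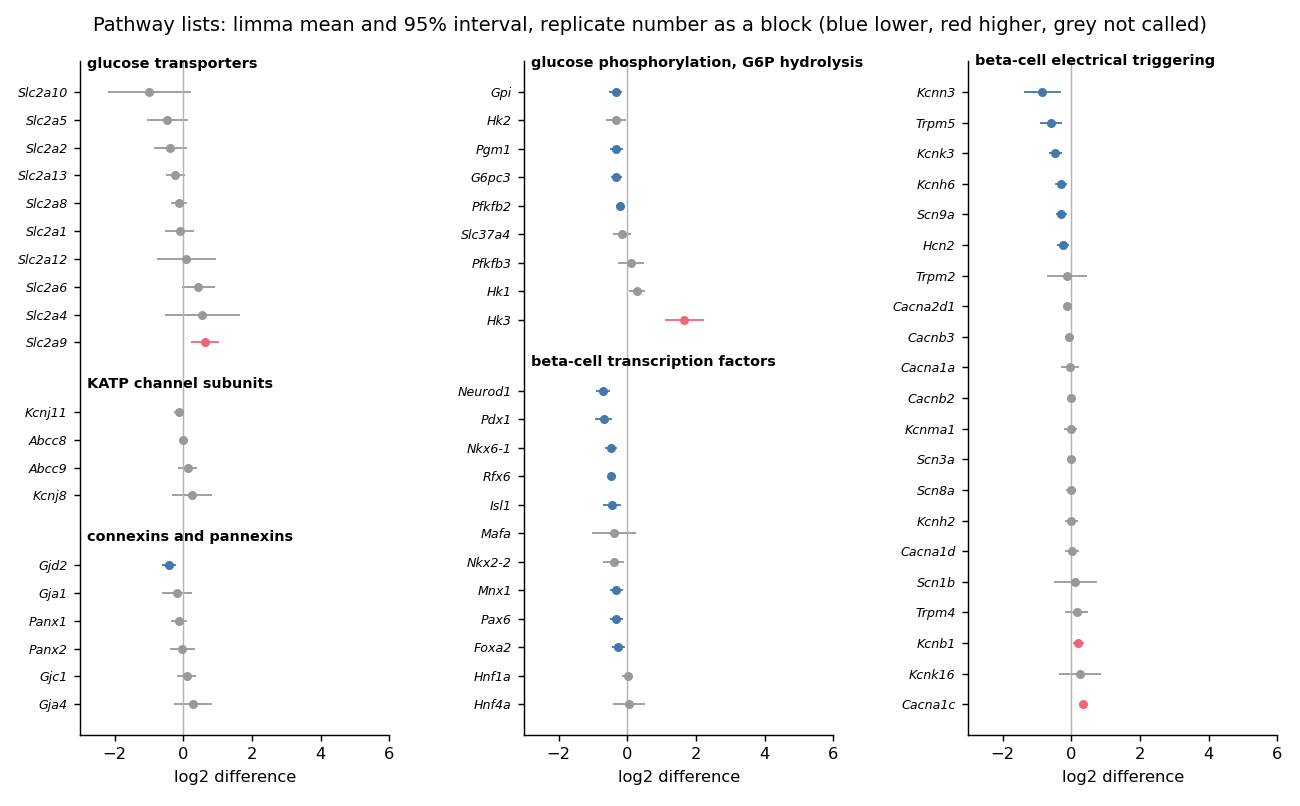
Log2 difference (x axis), anti-mt-tRF-LeuTAA minus anti-control, of the genes described from 6 lists around glucose sensing and electrical activity. Points are limma means with 95% intervals in the fit with the replicate block, blue where called lower, red where called higher and grey where not called. Blue points are most frequent among beta-cell transcription factors (8 of 12), and none of the 4 KATP genes is called. Of all genes 35.3% are called in either direction and 17.7% as lower.

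The list around glucose-6-phosphate held more called genes. Of 14 genes of glucose phosphorylation and glucose-6-phosphate turnover considered, 9 were measured, and 1 rose and 4 fell with the block, against 17.6% and 17.7% of all genes. Their median log2 fold change was -0.21. Without the block 1 rose and 1 fell, against 10.9% and 4.65% of all genes. The hexokinase genes Hk1 (log2 fold change 0.29, limma adjusted p = 0.0609) and Hk2 (-0.33, 0.0669) did not pass with the block.

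Pfkfb2, an enzyme that makes fructose-2,6-bisphosphate, was at 7.79 to 8.90 log2 CPM in anti-control and 7.76 to 8.51 log2 CPM in silenced libraries. It fell by 0.21 on the log2 scale (SE 0.06, limma adjusted p = 0.0176), in 6 of 6 replicate numbers, and did not pass without the block (0.516). Its call held in 3 of 6 fits that left out 1 replicate number.

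G6pc3, the widely expressed glucose-6-phosphatase, fell from 5.39 ± 0.21 to 5.08 ± 0.09 log2 CPM in 6 of 6 replicate numbers (log2 fold change -0.32, limma adjusted p = 0.00621, and 0.0405 without the block). Gpi and Pgm1, which interconvert glucose-6-phosphate with fructose-6-phosphate and glucose-1-phosphate, fell by 0.34 and 0.33 on the log2 scale (adjusted p = 0.00975 and 0.0143), each in 6 of 6 replicate numbers. Neither passed without the block (0.0845 and 0.0810).

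Hk3, a hexokinase known from myeloid cells, rose from a median of 0.95 to 3.01 log2 CPM (log2 fold change of the means 1.66, SE 0.26, limma adjusted p = 0.00109). It was higher in 6 of 6 replicate numbers, although anti-control replicate 5 was at 2.92 log2 CPM and overlapped the silenced libraries. The 7 macrophage markers summed to 45.5 to 129 CPM in anti-control and 47.6 to 93.3 CPM in silenced libraries, with a higher sum in 4 of 6 replicate numbers (exact two-sided sign-flip p = 0.969). Of these markers Cd68 rose (log2 fold change 2.02, limma adjusted p = 0.00220) and Adgre1 fell by 0.79 on the log2 scale (adjusted p = 0.0259). The part of macrophages in the Hk3 result was not tested.

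Downstream of the KATP channel, 21 of 24 listed channels of beta-cell electrical triggering were measured, and 2 rose and 6 fell with the block (38.1% called, near the 35.3% of all genes, median log2 fold change -0.02). Without the block 1 rose and 0 fell, against 10.9% and 4.65% of all genes (1 and 1 of the list at an unadjusted p of at most 0.05). Cacna1c, the pore of the L-type calcium channel Cav1.2, rose from 6.96 ± 0.13 to 7.30 ± 0.07 log2 CPM in 6 of 6 replicate numbers (log2 fold change 0.34, limma adjusted p = 0.000595, and 0.00274 without the block). Its groups did not overlap.

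Trpm5, a calcium-activated cation channel, fell by 0.59 on the log2 scale in 5 of 6 replicate numbers (limma adjusted p = 0.0114). Kcnk3, the background potassium channel TASK-1, fell by 0.46 (adjusted p = 0.00234), and Scn9a, the sodium channel Nav1.7, by 0.29 (0.0108), each in 6 of 6 replicate numbers. None of these 3 passed without the block (0.177, 0.355 and 0.565). Cacna1d, the L-type channel Cav1.3, was at 7.94 ± 0.56 and 7.96 ± 0.45 log2 CPM (log2 fold change 0.01, adjusted p = 0.913).

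Of 14 listed transcription factors that maintain beta-cell gene expression, 12 were measured, and 8 fell and 0 rose with the block, with a median log2 fold change of -0.40. Of all genes, 17.7% were called lower with the block and 4.65% without it. At an unadjusted p of at most 0.05 the counts were 9 and 0, and without the block 3 fell and 0 rose. With limma-voom on reads 9 fell and 0 rose. The smallest adjusted p were those of Rfx6 (log2 fold change -0.47), Neurod1 (-0.70), Pdx1 (-0.68) and Nkx6-1 (-0.47), each lower in 6 of 6 replicate numbers. Rfx6, Neurod1 and Pdx1 also passed without the block (limma adjusted p = 0.0247, 0.00882 and 0.0181), and Nkx6-1 did not (0.266).

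Marker sums of cell types were also compared between the groups. The p-values of these exact sign-flip tests were not adjusted over the sums tested, and 0.0312 is the smallest that 64 arrangements allow. The sum of 5 ductal markers was lower after silencing in 6 of 6 replicate numbers (299.5 to 469.6 against 261 to 348 CPM, exact two-sided sign-flip p = 0.0312), and that of 6 stromal markers in 5 of 6 (1089 to 4310 against 457 to 2936 CPM, p = 0.0938). Krt7, at a median of 8.35 log2 CPM in anti-control and 8.04 in silenced libraries, made up most of the ductal sum. With the block 1 of the 5 ductal markers was called lower, where 17.7% of all genes were. The medians of Spp1 were 5.24 and 5.16 log2 CPM. The sum of the 3 measured acinar markers of 8 was higher in 5 of 6 (1.69 to 15.3 against 6.03 to 14.6 CPM, exact p = 0.0625). Of these 3, Cel went from a median of -1.19 log2 CPM in anti-control to 2.35 in silenced libraries. Cpa1 (-0.95 and -0.98) and Cela1 (1.61 and 1.61) did not pass. By the same exact test, the beta-cell sum was lower in 4 of 6 (p = 0.906), the alpha-cell sum in 2 of 6 (p = 0.219) and the delta-cell sum in 2 of 6 (p = 0.250). Ins1, at a median of 16.41 log2 CPM in anti-control and 16.42 in silenced libraries, made up most of the beta-cell sum. Of the 8 beta-cell markers, Ucn3 (log2 fold change -0.70, limma adjusted p = 0.00185) and Nkx6-1 fell with the block, where 17.7% of all genes did. Ins1, Ins2, Iapp, Mafa, Slc30a8 and Pcsk1 did not pass. The median log2 fold change of the 8 was -0.31, against -0.04 over all genes. The acinar lipase gene Cel rose in 6 of 6 replicate numbers (log2 fold change 3.23, limma adjusted p = 1.75e-05), as did the endothelial receptor gene Kdr (0.57, adjusted p = 0.00455, and 0.758 without the block). Kdr was the 1 called of 5 measured endothelial markers, where 17.6% of all genes were called higher. The sum of these 5 was higher in 4 of 6 replicate numbers (24.9 to 473 against 38.7 to 441 CPM, exact two-sided sign-flip p = 0.219). The part of these markers in the results was not tested.

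How the members varied together was described by Pearson correlation over the 12 libraries after removal of group means. Slc2a2 and Abcc8 correlated by 0.94, Slc2a2 and Kcnj11 by 0.84, and Kcnj11 and Abcc8 by 0.77. Gjd2 stood apart from Slc2a2 (0.13) and Abcc8 (0.12) and correlated with Kcnj11 by 0.51. By the study's count of rats these libraries share rats, and they share differences in composition and depth, so the values are descriptive.

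Among 6693 genes with a symbol at or above the median level, Tmem184a (0.99), Erlec1 (0.99) and Dhrs4 (0.99) were most like Slc2a2, and N4bp1 (-0.98) least. For Kcnj11 they were Serinc1 (0.98), Trh (0.97) and Pcbd1 (0.97), with Zfp496 (-0.97) least alike. For Abcc8 they were Slc25a23 (0.99), Dmxl2 (0.98) and Prkaca (0.98), with Cnot7 (-0.99) least alike. For Gjd2 the nearest were Trim65 (0.95), Arid5a (0.91) and Rcan3 (0.91), lower values than for the other 3 members, with Smc4 (-0.83) least alike.

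Among genes of the table, the nearest one upstream of Gjd2 on its strand was Aqr, with a gap of 99.8 kb between the annotated spans (log2 fold change -0.0015, limma adjusted p = 0.985). That of Abcc8 was Ush1c, with a gap of 15.8 kb, which fell by 0.30 on the log2 scale (adjusted p = 0.0112). That of Slc2a2 was AABR07009834.1, with a gap of 27.1 kb (log2 fold change -0.29, adjusted p = 0.365).

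**Figure D5:**
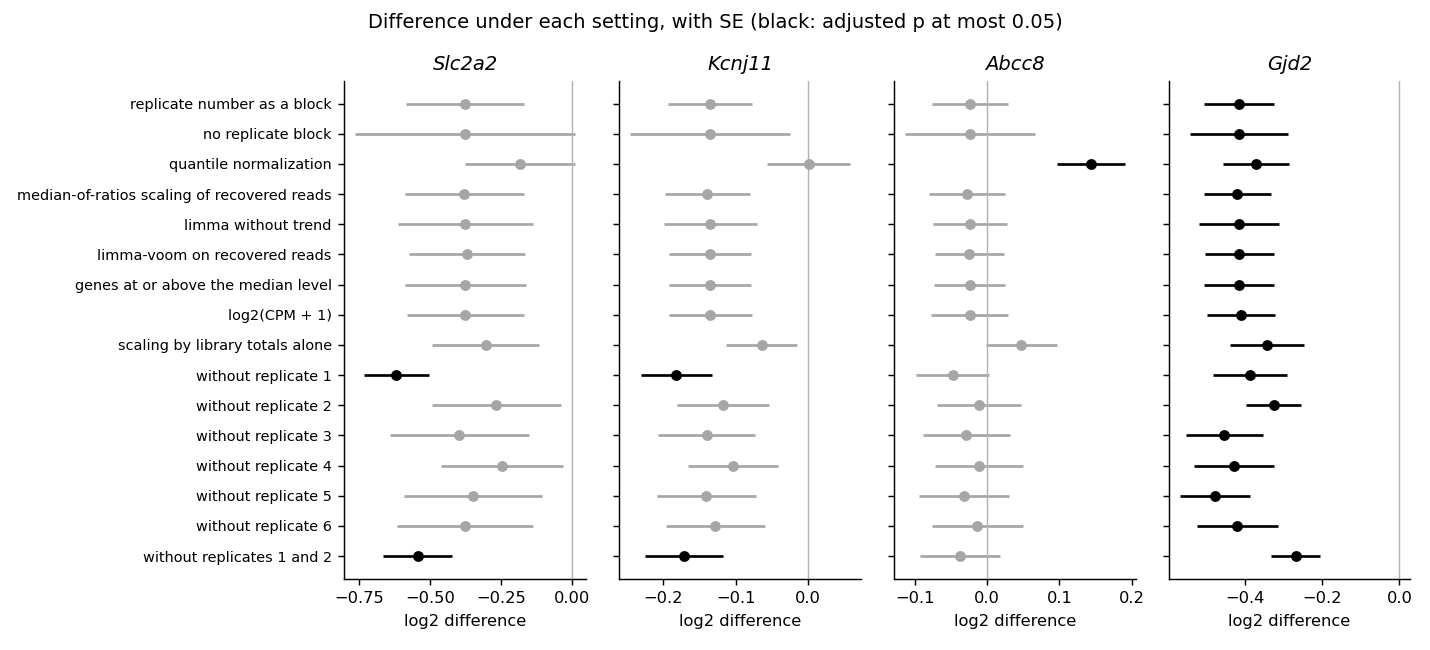
Log2 difference ± SE (x axis), anti-mt-tRF-LeuTAA minus anti-control, of Slc2a2, Kcnj11, Abcc8 and Gjd2 under 16 settings (y axis), black where the adjusted p was at most 0.05 and grey otherwise, with a separate axis for each gene. Gjd2 is black in every setting plotted, Slc2a2 and Kcnj11 are black only without replicate 1 and without replicates 1 and 2, and Abcc8 is black only, and above 0, with quantile normalization.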

How the data were processed

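The authors deposited log2 values, log2 CPM with a scaled prior count of 1, for 13733 genes in 12 libraries, with coordinates of assembly Rnor_6.0. The submitters' processing notes list, without roles, edgeR 3.30.3, limma 3.44.3, R 4.0.3, HTSeq 0.9.1, STAR 2.5.3a and cutadapt 1.8. Libraries were made with a stranded total RNA kit, and the sources used here do not say whether counting used strand. Columns of the authors' own comparisons (group means, fold changes and p-values) and 3 tables of selected rows were not used.

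Back-transformation gave whole reads for 100% of values (tolerance 0.01). Between replicates of a group, chi-square per degree of freedom was 18.7 to 254, so no library repeated another of its group. Fits used limma 3.58.1 in R 4.3.3 with an intensity trend. The replicate number was a block because the members' rule pairs by it. With this block 2412 genes were called higher and 2431 lower, the same counts that the study reports. Same-numbered libraries correlated by 0.474 to 0.763. Ratios were tested by exact sign-flips.

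Members, lists and named genes (up to 4 called genes per list by adjusted p, or the 2 most abundant) were chosen with earlier results of these data known. Slc2a1, Hk1, Hk2, Pfkfb2, Gja1, Kcnj8, Abcc9, Cacna1d and single markers were named after their values had been seen. Alternatives covered normalization, filter, pseudocount, block and left-out replicates. Some genes are not reported here and were left out of the list counts, which therefore do not cover whole families.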

Additional observations from a re-analysis of the deposited data

Results flagged for a closer look

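In 60 groups of 6 libraries, the highest or lowest value was compared with its neighbour by Dixon's criterion, which flags about 1 in 20 groups by chance. It picked out 9 values. In anti-mt-tRF-LeuTAA replicate 2 these were Slc2a2 at 9.17 log2 CPM (the next library was at 10.53), Abcc8 at 9.12 (next 9.38), Pdx1 at 6.33 (next 7.08) and the log2 alpha-cell marker sum at 11.84 (next 14.33). In the same library the Slc2a2 to Slc2a1 log2 ratio was 0.98, with the next at 3.87.

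Hk3 was far from the other libraries in anti-control replicate 5 (2.92 log2 CPM, next 1.36) and in anti-mt-tRF-LeuTAA replicate 3 (2.47, next 2.90). The log2 macrophage marker sum was low in anti-mt-tRF-LeuTAA replicate 3 (5.57, next 6.23), and the log2 Schwann-cell marker sum was low in anti-mt-tRF-LeuTAA replicate 6 (2.95, next 4.36).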

How the results depend on the processing

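Gjd2 kept its direction in every setting tried and its call in every setting with the block (log2 fold change -0.48 to -0.27). Without the replicate block its call held alone (adjusted p = 0.0422) but was lost with quantile normalization (-0.37, adjusted p = 0.0663), without the trend (-0.41, 0.0585) and in 10 of 12 fits without 1 library, combinations chosen after the data had been seen. With the block, leaving out 1 replicate number gave -0.48 to -0.32 for Gjd2, -0.62 to -0.25 for Slc2a2, -0.18 to -0.10 for Kcnj11 and -0.05 to -0.01 for Abcc8. Without the block, leaving out 1 library gave -0.50 to -0.35 for Gjd2, -0.61 to -0.11 for Slc2a2, -0.19 to -0.074 for Kcnj11 and -0.067 to 0.031 for Abcc8, which was above 0 without anti-control replicate 6 (0.0037) and without anti-mt-tRF-LeuTAA replicate 2 (0.031). Without replicates 1 and 2, Slc2a2 (-0.55) and Kcnj11 (-0.17) passed. With quantile normalization the log2 fold change was 0.00081 for Kcnj11 and 0.14 for Abcc8, with or without the block, and with library totals alone it was 0.047 for Abcc8. The causes were not tested.

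Without the block, 1494 genes rose and 638 fell, against 2412 and 2431 with it, so 70.1% instead of 49.8% of calls were higher. That share was 67.5% with library totals alone (1413 lower) and 36.7% among genes at or above the median level (1066 higher). Unblocked counts were 0 higher for glucose transporters, 1 lower for glucose phosphorylation, 1 higher and 0 lower for triggering channels and 3 lower for transcription factors. Quantile normalization gave 0 higher and 3 lower transporters, 2 higher phosphorylation genes and 1 higher KATP gene. The median-level filter kept no called higher gene (0) among transporters or phosphorylation genes. Library totals alone gave 2 higher and 2 lower phosphorylation genes, and the fit without trend 1 higher triggering channel. Without replicates 1 and 2 there were 0 higher and 2 lower transporters, 1 lower KATP gene and 1 higher triggering channel.

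Leaving out 1 replicate number gave 0 to 2 higher and 0 to 3 lower transporters, 1 to 2 higher and 3 to 5 lower phosphorylation genes, 0 to 1 lower KATP genes, 1 to 2 higher and 4 to 5 lower triggering channels, and 6 to 11 lower transcription factors. Replicate 1 set the transporter and KATP counts, with 3 lower and 1 lower without it. The Abcc8 to Kcnj11 ratio stayed at 0.09 to 0.13 and the Slc2a2 to Slc2a1 ratio at -0.75 to -0.03 without 1 replicate number, and without the block their permutation p were 0.158 and 0.829. A count model planned as an alternative was not run, and limma-voom was run on the recovered reads. G6pc2 was not analysed here. A single read stood for 0.0450 to 0.0594 CPM, so depth limits scarce genes and not the members.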
